A study of Mus musculus with 6 samples.

Results

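In mouse leukaemia cells, 10 genes of MHC class I antigen presentation were examined: the heavy chains H2-K1 and H2-D1, the light chain B2m, the peptide transport and loading genes Tap1, Tap2 and Tapbp, the inducible proteasome subunits Psmb8, Psmb9 and Psmb10, and the transactivator Nlrc5. They were taken by gene symbol from a table of 23608 genes, in which all 10 had a row, and all 10 were among the 11614 genes with enough counts to be tested. The cells came from fetal liver of Usp18+/f UBCER-Cre mice, carried a retrovirus that expresses GFP and AE9a, the shortened oncogene of the AML1-ETO fusion, and were grown in irradiated C57BL/6 wild-type recipients. Once the recipients were sick they received oil or tamoxifen, and 3 days after injections began, GFP+ Lin- c-Kit+ leukaemia cells were sorted out of spleen.

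The study used young adult mice of both sexes, and each group held 3 libraries, from 3 mice per group in the study's account. The oil group was Usp18+/f. The tamoxifen group was Usp18+/D, in which Cre is meant to have removed the floxed copy while the other copy stays. Cells of both groups carried the floxed allele, the Cre and AE9a. The Cre is driven by the ubiquitin C promoter, active in most tissues, and no group received tamoxifen without the floxed allele, so an action of tamoxifen or Cre cannot be told apart from the loss of 1 Usp18 copy. The comparison asked how the class I genes of leukaemia cells differed after Usp18, a brake on the type I interferon receptor, was to be reduced.

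Class I molecules display peptides from the inside of a cell to CD8+ T cells. The proteasome cuts proteins into peptides, and under interferon its standard catalytic subunits are replaced by inducible ones, which changes the peptides made. The transporter TAP moves peptides into the endoplasmic reticulum, where tapasin holds an empty heavy chain beside it, and only a heavy chain that is bound to beta-2-microglobulin and a peptide reaches the surface. NLRC5 drives transcription of these genes, and interferons raise most of them, while NK cells respond to cells that have lost class I.

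The libraries held between 17118964 and 20741399 counts. Libraries are named by the numbers of the table, oil 1, 3 and 4 and tamoxifen 1, 2 and 4, and levels are in CPM, the count of a gene scaled by the size of its library. Usp18 went against the label: it had 9.12, 11 and 11.2 CPM in oil 1, 3 and 4 and 15.1, 28.0 and 19.4 CPM in tamoxifen 1, 2 and 4. Its log2 fold change was 1.0 (SE 0.23, edgeR adjusted p = 0.0739, or 0.00654 without tamoxifen 4), and groups are therefore given as labelled. Tamoxifen 4 stood apart, since its correlation across genes was 0.982 to 0.985 with oil libraries and 0.970 to 0.973 with tamoxifen 1 and 2, so each class I gene and each list is given with and without it. The sort markers were present, with Kit at 439 to 451 CPM in oil and at 651, 781 and 447 CPM in tamoxifen 1, 2 and 4. Cd34, a progenitor marker, rose from 9.95 ± 1.66 to 96.3 ± 48.3 CPM (SD, n = 3 each, edgeR adjusted p = 0.0232), whereas the granulocyte progenitor markers Mpo and Elane did not exceed 0.236 CPM and 0 CPM. Of 8 progenitor markers listed, 6 were tested, and Cd34 alone passed an edgeR adjusted p under 0.05, beside 1.75% of all genes higher. Kit, Prtn3 and Gata2 had log2 fold changes of 0.49, 0.86 and 0.23, and Myb and Ms4a2 0.08 and -0.04. Their edgeR adjusted p lay between 0.202 and 0.807. Without tamoxifen 4, 3 of the 6 passed higher and 0 lower, beside 19.2% and 17.1% of all genes in that fit. In bulk samples a different mix of cells and a different amount of RNA per cell cannot be told apart.

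Of the class I genes, 7 lie in the MHC on chromosome 17 (GRCm38): H2-K1 at chr17:33996017-34000347 on the minus strand, H2-D1 at chr17:35262730-35267499, Tap1 at chr17:34187553-34197225, Tap2 at chr17:34203527-34216321, Tapbp at chr17:33915899-33929292 and Psmb8 at chr17:34197721-34201454 on the plus strand, and Psmb9 at chr17:34181987-34187764 on the minus strand. B2m lies at chr2:122147686-122153083 on the plus strand. Psmb10 lies at chr8:105935735-105938444 on the minus strand and Nlrc5 at chr8:94434356-94527272 on the plus strand. Tap1 and Psmb9 are head to head, with RefSeq starts 226 bases apart, and their annotated genes share 212 bases on opposite strands. Tapbp overlaps Zbtb22 and the antisense transcript Gm19412. The strand setting of the counting is not given in the sources used here, so reads in such overlaps are uncertain.

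Upstream sequences are shown for B2m and H2-K1, the members with the largest and the smallest difference among the 3 abundant surface chain genes, and a short stretch is shown for H2-D1 to set it against H2-K1. They are RefSeq sequence (GRCm38.p6) on the strand of each gene. The first is chr2:122147536-122147685 on the plus strand, and the second is chr17:34000348-34000497 on the minus strand. The third is the part of the second at chr17:34000428-34000457, and the fourth is chr17:35262924-35262953 on the plus strand. Capitals mark letters that match a core of the ISRE, the site of interferon-activated factors (GAAANNGAA), a short IRF element with the triplets in the other order (GAANNGAAA), a core of the NF-kB site (GGNNTTNCC) or a CCAAT box (CCAAT), each searched on both strands. The first pair of motifs can overlap.
B2m upstream: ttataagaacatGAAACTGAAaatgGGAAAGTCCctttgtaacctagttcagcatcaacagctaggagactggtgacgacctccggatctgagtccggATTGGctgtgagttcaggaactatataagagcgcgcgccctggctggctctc
H2-K1 upstream: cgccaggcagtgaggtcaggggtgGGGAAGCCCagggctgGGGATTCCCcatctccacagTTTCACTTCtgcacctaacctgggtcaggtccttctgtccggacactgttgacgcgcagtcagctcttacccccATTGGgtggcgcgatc
H2-K1 stretch: GGGATTCCCcatctccacagTTTCACTTCt
H2-D1 stretch: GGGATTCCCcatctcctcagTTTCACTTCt

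Distances are counted from the start of each RefSeq promoter record, which for H2-K1 is the outer of its starts and for H2-D1 lies inside the annotated gene. In B2m the ISRE core letters began 139 bases before the start and the kB letters 126 bases before it. In H2-K1 kB letters began 126 and 110 bases and the short IRF letters 90 bases before the start, and in H2-D1 the same letters began 186, 170 and 150 bases before it. Of 32851 promoter windows of the same length, 8.56% held the ISRE core, 7.52% the short IRF element, 16% the kB core and 37.4% a CCAAT box. Promoter windows were matched for 8 of the 10 genes, all but Tap2 and Nlrc5. Among these 8, B2m held the ISRE core, H2-K1 and H2-D1 held the short IRF element, all 3 of these genes held a kB core, and these 3 with Tap1, Tapbp and Psmb9 held a CCAAT box. The windows of Tap1 and Psmb9 share 275 bases. These matches describe letters and show no binding.

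The class I genes spanned a wide range of levels in the oil libraries. To compare genes, CPM was divided by the length in kb of the principal transcript of each gene in GENCODE M21. In oil, B2m led at 492 ± 6.89 CPM per kb (SD, n = 3), followed by H2-K1 at 213 ± 12.1, H2-D1 at 174 ± 4.63 and Tapbp at 77.3 ± 3.86 CPM per kb. Psmb10 had 55.7 ± 3.46, Psmb8 47.4 ± 1.02, Psmb9 39.3 ± 2.36, Tap1 34.1 ± 0.91 and Tap2 29.4 ± 1.77 CPM per kb. Nlrc5 was far below the genes it drives, at 0.313 ± 0.136 CPM per kb. No gene's range overlapped that of its neighbour in this order in oil. In tamoxifen the ranges of H2-K1 and H2-D1 overlapped, as did those of each pair of neighbours from Tapbp down to Tap1. Ranked by CPM among the tested genes in oil, B2m stood at percentile 97.1, H2-D1 at 96.1 and H2-K1 at 95.7, whereas Psmb9 stood at 58.6 and Nlrc5 at 11.8. The place of H2-D1 in both orders, and relative to H2-K1, is uncertain. The counting may have divided its reads with the near-identical entry H2-L, which had 255 CPM in oil beside 365 CPM for H2-D1.

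All 10 genes had a positive log2 fold change in tamoxifen over oil, where 5809 of the 11614 genes tested did, and 0 of the 10 passed the threshold of an edgeR adjusted p under 0.05. Of all genes tested, 1.75% passed it higher and 0.267% lower. At an unadjusted p under 0.05, B2m, Tap1, Psmb8 and Nlrc5 were higher, which is 4 of 10 beside 12.6% of all genes. Limma-voom called 0 of the 10 at an adjusted p under 0.05, where it called 48 of the 11614 genes higher and 6 lower. The DESeq2 Wald test called 0 of the 10 as well, beside 6.14% of all genes higher and 1.99% lower. For B2m, Tap1 and Psmb8, 3 of the 10, all tamoxifen libraries lay above all oil libraries, beside 13.3% of all genes tested. The median log2 fold change of the 10 was 0.19 and that of all genes tested was 0. Without tamoxifen 4, H2-D1, B2m, Tap1 and Nlrc5 passed the threshold higher, which is 4 of 10, and in that fit 19.2% of all genes passed it higher and 17.1% lower.

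**Figure D1:**
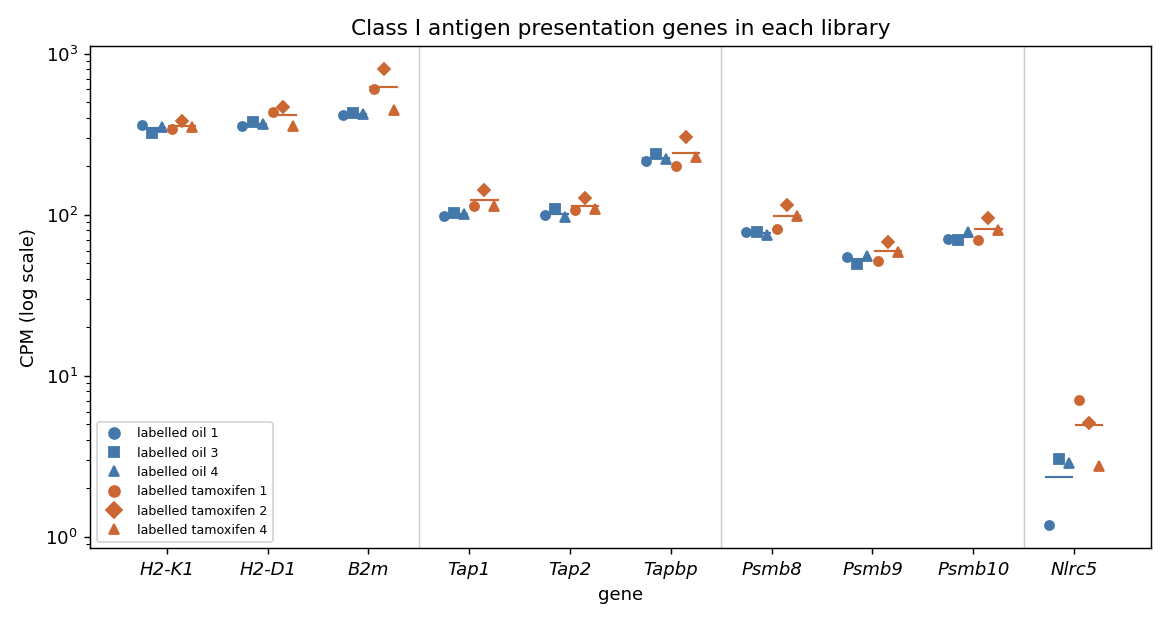
Level of each of the 10 genes in each library, in CPM on a log scale, with oil in blue, tamoxifen in orange, symbols for the library numbers and short lines for the group means; grey lines divide heavy and light chains, transport and loading, proteasome subunits and the transactivator. Tamoxifen 2 is the highest library for 9 of the 10 genes, and for B2m, Tap1 and Psmb8 the orange points all lie above the blue ones.

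For all 10 genes the SD of CPM was larger among the 3 tamoxifen libraries than among the 3 oil libraries. The share of all genes with a larger SD in tamoxifen was not counted. Across genes, tamoxifen 4 correlated at 0.97 to 0.973 with tamoxifen 1 and 2, and the oil libraries with each other at 0.99 or more. Tamoxifen 2 was the highest of the 6 libraries for 9 of the 10 genes, and it was the highest for 26.6% of all genes tested. For Nlrc5, tamoxifen 1 was the highest. For 6 of the 10 genes tamoxifen 4 exceeded each oil library, which it did for 31.4% of all genes. The median distance of the 10 genes from their oil mean was 0.08, 0.40 and 0.12 log2 units in tamoxifen 1, 2 and 4, and ran from -0.03 to 0.03 in the oil libraries. The role groups were ordered differently in these libraries. In tamoxifen 1 the heavy and light chains stood at 0.25 and the proteasome subunits at -0.05, whereas in tamoxifen 4 they stood at 0.02 and 0.15. In tamoxifen 2 the 3 groups of 3 genes stood at 0.35, 0.43 and 0.38.

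The chains that form the surface molecule were described first. B2m encodes beta-2-microglobulin, the light chain that all classical heavy chains need. It had 417, 429 and 424 CPM in oil 1, 3 and 4 and 600, 806 and 448 CPM in tamoxifen 1, 2 and 4. The oil libraries were within a narrow range, tamoxifen 1 and 2 stood far above it, and tamoxifen 4 lay just above it. The means were 423 ± 5.92 and 618 ± 180 CPM (SD, n = 3 each), and the log2 fold change was 0.55 (SE 0.19, edgeR adjusted p = 0.177). Without tamoxifen 4 the log2 fold change was 0.73 (SE 0.11, edgeR adjusted p = 0.000755), and without tamoxifen 2 it was 0.31 (edgeR adjusted p = 0.404).

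H2-D1 encodes 1 of the classical heavy chains of C57BL/6 mice. It had 356, 375 and 365 CPM in oil 1, 3 and 4 and 435, 465 and 355 CPM in tamoxifen 1, 2 and 4. Tamoxifen 1 and 2 were above the oil libraries, and tamoxifen 4 was below all of them. Its log2 fold change was 0.20 (SE 0.11, edgeR adjusted p = 0.338) with all 6 libraries and 0.30 (SE 0.07, edgeR adjusted p = 0.00733) without tamoxifen 4, but 0.12 (edgeR adjusted p = 0.683) without tamoxifen 2. H2-L, a near-identical entry chosen after its values were seen, kept a ratio of 0.683 to 0.705 to H2-D1 in all 6 libraries. How the counting divided reads between such entries is not given in the sources used here, so the level of H2-D1 is uncertain.

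H2-K1 encodes the other classical heavy chain of this strain. It had 360, 323 and 352 CPM in oil 1, 3 and 4 and 342, 383 and 349 CPM in tamoxifen 1, 2 and 4. The groups overlapped, with tamoxifen 1 and 4 inside the oil range. For H2-K1 the log2 fold change was 0.05 (SE 0.09, edgeR adjusted p = 0.745) and 0.07 (SE 0.08, edgeR adjusted p = 0.517) without tamoxifen 4, the smallest of the 10 genes in both fits, and it was 0 without tamoxifen 2 (edgeR adjusted p = 0.992).

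Light chain and heavy chains were therefore set against each other within each library, where scaling between libraries plays no part. The ratio of B2m to H2-D1 counts was 1.17, 1.14 and 1.16 in oil 1, 3 and 4, compared with 1.38, 1.73 and 1.26 in tamoxifen 1, 2 and 4. These groups did not overlap, tamoxifen 4 included. The ratio of B2m to H2-K1 counts was 1.16, 1.33 and 1.2 in oil and 1.76, 2.11 and 1.28 in tamoxifen, and there tamoxifen 4 lay within the oil range. These ratios were chosen after the values were seen and were not tested.

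**Figure D2:**
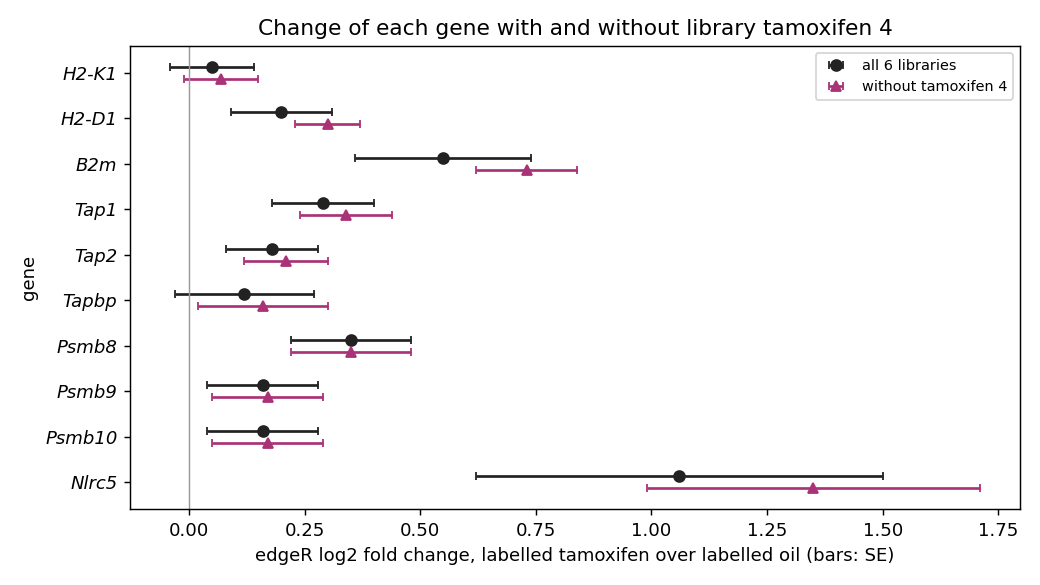
Log2 fold change of each gene in tamoxifen over oil from edgeR (x axis, bars are SE), with all 6 libraries in black and without tamoxifen 4 in purple. B2m moves from 0.55 to 0.73 and Nlrc5 from 1.06 to 1.35 without that library, whereas H2-K1 stays near 0 in both fits and Psmb8 at 0.35.

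Peptide transport and loading came next. Tap1 encodes one subunit of the TAP transporter. It had 97.7, 103 and 101 CPM in oil 1, 3 and 4 and 113, 143 and 113 CPM in tamoxifen 1, 2 and 4. All tamoxifen libraries were above all oil libraries, and tamoxifen 1 and 4 had the same level. With all libraries Tap1 had a log2 fold change of 0.29 (SE 0.11, edgeR adjusted p = 0.213), and 0.34 (SE 0.10, edgeR adjusted p = 0.0213) without tamoxifen 4. Leaving out tamoxifen 2 instead gave 0.17 (edgeR adjusted p = 0.475).

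Tap2, the partner subunit of TAP1, had 99.1, 108 and 96.6 CPM in oil 1, 3 and 4 and 107, 127 and 108 CPM in tamoxifen 1, 2 and 4. Oil 3 reached the level of tamoxifen 1 and 4, so the groups overlapped. Its log2 fold change was 0.18 (SE 0.10, edgeR adjusted p = 0.339), and it did not pass without tamoxifen 4 (0.21, SE 0.09, edgeR adjusted p = 0.0947). Without tamoxifen 2 the Tap2 value was 0.09 (edgeR adjusted p = 0.696). Tapbp, which encodes tapasin, had 215, 237 and 221 CPM in oil and 200, 302 and 227 CPM in tamoxifen. Tamoxifen 1 was the lowest of the 6 libraries for Tapbp and tamoxifen 2 the highest, and the log2 fold change was 0.12 (SE 0.15, edgeR adjusted p = 0.663), or 0.16 without tamoxifen 4 (edgeR adjusted p = 0.393). Without tamoxifen 1 it was 0.24 (edgeR adjusted p = 0.486). Without tamoxifen 2 it was -0.07 (edgeR adjusted p = 0.785), so its direction rested on that library.

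The inducible catalytic subunits of the proteasome were compared next. Psmb8 encodes LMP7, the inducible counterpart of the standard subunit of Psmb5. It had 78.0, 78.4 and 75.3 CPM in oil 1, 3 and 4 and 81.2, 115 and 97.8 CPM in tamoxifen 1, 2 and 4. The groups did not overlap, and tamoxifen 4 was the second highest library. The log2 fold change was 0.35 (SE 0.13, edgeR adjusted p = 0.202), and it was 0.35 again without tamoxifen 4 (SE 0.13, edgeR adjusted p = 0.0528) but 0.21 without tamoxifen 2 (edgeR adjusted p = 0.466).

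Psmb9 encodes LMP2, the counterpart of Psmb6, and lies head to head with Tap1. It had 54.5, 49.5 and 55.5 CPM in oil 1, 3 and 4 and 51.4, 68.2 and 59.1 CPM in tamoxifen 1, 2 and 4. Tamoxifen 1 lay within the oil range for Psmb9 and above it for Tap1. Psmb9 had a log2 fold change of 0.16 (SE 0.12, edgeR adjusted p = 0.441). Psmb10 encodes MECL-1, the counterpart of Psmb7, and had 70.8, 70.1 and 78.3 CPM in oil and 69.3, 94.9 and 80.6 CPM in tamoxifen. Here tamoxifen 1 was the lowest of the 6 libraries. Its log2 fold change was also 0.16 (SE 0.12, edgeR adjusted p = 0.469), and without tamoxifen 4 neither gene passed (0.17 each, edgeR adjusted p of 0.293 for Psmb9 and 0.311 for Psmb10). Without tamoxifen 2 the values were 0.06 for Psmb9 and 0.04 for Psmb10 (edgeR adjusted p of 0.848 and 0.903), and without tamoxifen 1 they were 0.26 for both.

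The 3 standard catalytic subunits had negative log2 fold changes. Psmb5 had 75.3, 73.5 and 73.3 CPM in oil 1, 3 and 4 and 58.3, 66.2 and 72.2 CPM in tamoxifen 1, 2 and 4. The groups did not overlap, although tamoxifen 4 was close to the oil libraries. Its log2 fold change was -0.17 (SE 0.10, edgeR adjusted p = 0.337). Those of Psmb6 and Psmb7 were -0.13 and -0.06 (edgeR adjusted p of 0.508 and 0.727). Without tamoxifen 4 Psmb5 and Psmb6 passed the threshold lower, as did 17.1% of all genes in that fit.

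Each inducible subunit was therefore set against its standard counterpart within each library. The ratio of Psmb8 to Psmb5 counts was 1.04, 1.07 and 1.03 in oil 1, 3 and 4, compared with 1.39, 1.74 and 1.36 in tamoxifen 1, 2 and 4. All 3 tamoxifen libraries stood above the oil libraries, and tamoxifen 4 stood beside tamoxifen 1. The difference of the mean log2 ratios was 0.51 (SE 0.12, n = 3 each), with a two-sided exact permutation p of 0.1, the smallest that 3 against 3 can give, and 0.3 after adjustment over the 3 ratios. The ratio of Psmb9 to Psmb6 was 0.523, 0.461 and 0.506 in oil and 0.570, 0.749 and 0.521 in tamoxifen. Tamoxifen 4 lay just under oil 1, and the log2 difference was 0.29 (SE 0.17, exact permutation p = 0.2, adjusted p = 0.3). The ratio of Psmb10 to Psmb7 was 0.725, 0.615 and 0.753 in oil and 0.706, 0.985 and 0.744 in tamoxifen. Only tamoxifen 2 lay above the oil range, and the log2 difference was 0.21 (SE 0.17, exact permutation p = 0.5, adjusted p = 0.5). Without tamoxifen 2 the log2 differences were 0.40 for Psmb8 over Psmb5, 0.14 for Psmb9 over Psmb6 and 0.06 for Psmb10 over Psmb7, and without oil 3 the last was 0.12.

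**Figure D3:**
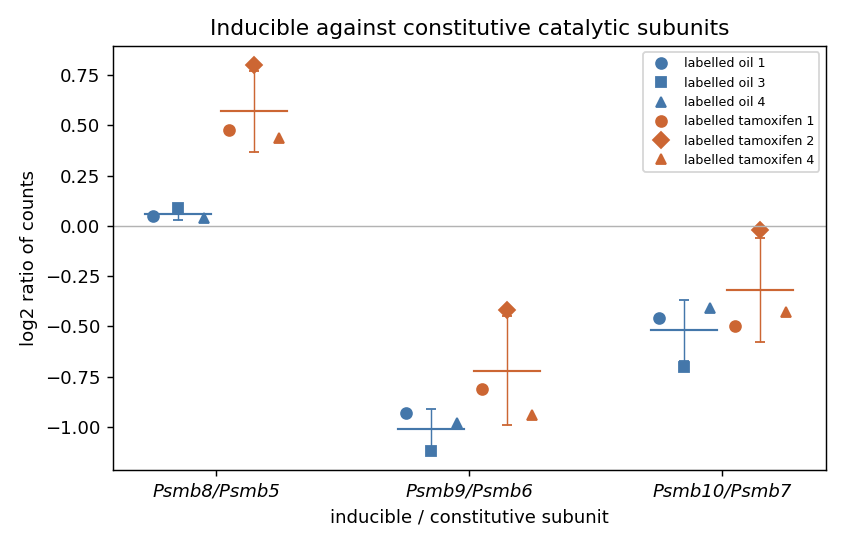
Log2 ratio of the counts of each inducible proteasome subunit to its standard counterpart in each library, with horizontal lines for the group means and bars for the SD (n = 3). For Psmb8 over Psmb5 the tamoxifen libraries lie at 0.44 to 0.80 and the oil libraries at 0.04 to 0.09, whereas for the other pairs the groups overlap.

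Nlrc5 is the transactivator of class I genes. In oil 1, 3 and 4 it had 21, 63 and 55.5 counts, and in tamoxifen 1, 2 and 4 it had 129, 85.5 and 50 counts, or 1.18, 3.05 and 2.88 CPM and 7.08, 5.08 and 2.76 CPM. Tamoxifen 1 and 2 were above the oil libraries, tamoxifen 4 was below oil 3 and oil 4, and oil 1 was the lowest. The log2 fold change was 1.06 (SE 0.44, edgeR adjusted p = 0.234), the largest of the 10 with the largest error, and without tamoxifen 4 it was 1.35 (SE 0.36, edgeR adjusted p = 0.0167). The library with most Nlrc5, tamoxifen 1, was not the one with most of the other 9 genes.

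Across the 6 libraries, log2 CPM of Tap1 followed the mean of the other 9 genes most closely, at a Pearson r of 0.97, followed by B2m at 0.94 and H2-D1 and Tap2 at 0.89. H2-K1, at 0.49, and Nlrc5, at 0.52, followed it least. Among 8893 other genes with a mean of at least 10 CPM, those most like the mean of the 10 over the 6 libraries were Clip2 (r = 0.996), Syt5 and Trex1 (both 0.993), Pgap2 (0.992), Clca3a1 and Rpl13a (both 0.991), Relt (0.990), Btk and Cst7 (both 0.988) and Stk40 (0.987). Trex1, a DNA exonuclease, had 13.5, 16.9 and 18.0 CPM in oil 1, 3 and 4 and 23.5, 32.7 and 19.1 CPM in tamoxifen 1, 2 and 4. It shows the shape these genes share, with tamoxifen 2 on top and tamoxifen 4 just above oil. These values describe 6 libraries in which tamoxifen 2 stands highest, and with so few points high correlations arise easily.

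The wider pathway was described by 144 further genes in 9 lists, of which 110 were tested and 48 had a positive log2 fold change. Of the 110, 1 passed the threshold higher and 0 lower, beside 1.75% and 0.267% of all genes. At an unadjusted p under 0.05, 12 of them were higher and 3 lower, beside 12.6% and 7.99% of all genes. For 14 of them all tamoxifen libraries lay above oil and for 7 below it, beside 13.3% and 11.8% of all genes. The gene that passed was Cd48, the ligand of the NK cell receptor 2B4. It had 4.90, 7.66 and 8.13 CPM in oil 1, 3 and 4 and 29.1, 36.8 and 17.3 CPM in tamoxifen 1, 2 and 4, so that tamoxifen 4 also stood above the oil libraries. The log2 fold change was 2.00 (SE 0.30, edgeR adjusted p = 0.0313), and Cd48 no longer passed when any library other than tamoxifen 4 was left out. In those fits 8 to 16 of all genes tested passed higher and 0 lower, beside 203 and 31 with all 6 libraries. The DESeq2 Wald test called 5 of the 110 higher, namely Cd48, Cd274, Clec2d, H2-Ob and Nfkb1, and 0 lower. It called 6.14% of all genes higher and 1.99% lower.

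Other class I and class Ib heavy chains had 11 of 30 genes tested, of which 9 had a positive log2 fold change and 0 passed, with a median of 0.26. H2-Q4 had 30.7, 31.4 and 30.0 CPM in oil and 47.0, 44.2 and 33.9 CPM in tamoxifen 1, 2 and 4, with no overlap (log2 fold change 0.44, edgeR adjusted p = 0.137). H2-T23, the Qa-1 molecule that is read by inhibitory NK receptors, had 141, 170 and 155 CPM in oil and 202, 319 and 151 CPM in tamoxifen (0.53, edgeR adjusted p = 0.263). H2-K2 had a log2 fold change of 0.75 (edgeR adjusted p = 0.236). Without tamoxifen 4, H2-Q4, H2-T23, H2-K2 and Mr1 passed higher, which is 4 of 11 and 0 lower, beside 19.2% and 17.1% of all genes in that fit. In tamoxifen 4 the median of this list stood at -0.02 log2 units from oil, beside 0.38 and 0.42 in tamoxifen 1 and 2.

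The list of peptide loading chaperones and of peptidases, not all of them in the endoplasmic reticulum, had 5 of 19 genes with a positive log2 fold change. Of these 19 genes 0 passed, and the median was -0.08. Hsp90b1, a chaperone, had -0.49, Tapbpl, a peptide editor related to tapasin, 0.37 and Uggt2 0.35 (edgeR adjusted p of 0.368, 0.277 and 0.496). Without tamoxifen 4, 2 of these 19 genes passed higher and 10 lower, beside 19.2% and 17.1% of all genes in that fit. Beside the class I genes, whose 4 calls in that fit were all higher, the median of this list in that fit was -0.20 and that of the 10 class I genes was 0.26.

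Of the 21 subunits of the 19S cap, which feeds proteins into the proteasome, 2 had a positive log2 fold change and 0 passed, with a median of -0.15 and values of -0.31, -0.26 and -0.25 for Psmd11, Psmd2 and Psmd12. Without tamoxifen 4, 11 of the 21 passed lower and 0 higher, beside 17.1% and 19.2% of all genes in that fit. The other 20S subunits had 11 genes tested, 6 of them with a positive log2 fold change, and a median of 0, with Psmb2 at -0.14, Psma3 at -0.13 and Psma5 at -0.09. The activators and assembly factors had 5 of 11 with a positive value and a median of -0.02, with Psme1, a subunit of the interferon-inducible PA28 activator, at 0.16, Psmg3 at -0.10 and Psmf1 at 0.10. None of these 6 genes passed, with edgeR adjusted p between 0.402 and 0.748, and without tamoxifen 4 Psme1 passed higher and Psmb2 lower. Psme2, added here as the other PA28 subunit, had 0.04 (edgeR adjusted p = 0.866), and 0 without tamoxifen 4 (edgeR adjusted p = 0.985).

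**Figure D4:**
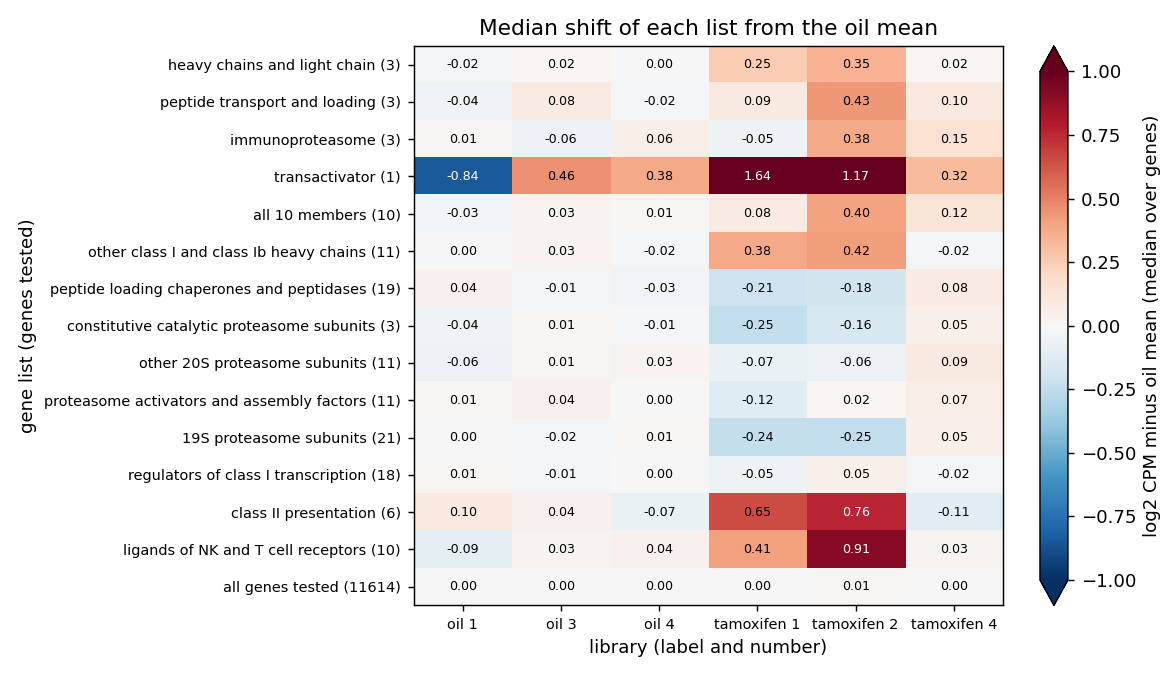
Median over each list of the difference of log2 CPM from the oil mean (colour and printed value, log2 units), by list and library, with the number of tested genes in brackets. The class I rows are positive in tamoxifen 2, at 0.35 or more, whereas the 19S subunits are at -0.24 and -0.25 in tamoxifen 1 and 2, and tamoxifen 4 lies nearer to 0 for most lists.

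Regulators of class I transcription had 18 of 19 genes tested, 9 with a positive log2 fold change, 0 passed and a median of -0.01. Irf1, the interferon-induced activator of these promoters, had 3.04, 3.78 and 4.22 CPM in oil 1, 3 and 4 and 6.2, 8.5 and 4.64 CPM in tamoxifen 1, 2 and 4, without overlap (log2 fold change 0.81, SE 0.27, edgeR adjusted p = 0.172). Stat2 and Irf9, parts of the factor that binds the ISRE, had 0.40 and 0.38 (edgeR adjusted p of 0.205 and 0.2), and neither gene's groups overlapped. Without tamoxifen 4, 5 of the 18 regulators passed higher, with Irf1, Stat2 and Irf9 among them, and 4 lower. In that fit 19.2% of all genes passed higher and 17.1% lower. Class II presentation had 6 of 13 genes tested and 0 passed, and the class II chains H2-Aa, H2-Ab1 and H2-Eb1 and their activator Ciita had too few counts to be tested. H2-Ob, a chain of a class II chaperone, had a log2 fold change of 1.93, Ifi30, a lysosomal thiol reductase, -0.72, and H2-DMb1 0.93 (edgeR adjusted p of 0.0624, 0.185 and 0.284). In the fit without tamoxifen 4, 2 of the 6 class II genes passed higher, H2-Ob among them, and 1 lower, Ifi30, beside the same shares of all genes. Among ligands of NK and T cell receptors, 10 of 15 were tested, 8 with a positive log2 fold change and a median of 0.57. Besides Cd48, Cd274, which encodes PD-L1, had 12.0, 14.0 and 15.3 CPM in oil and 34.0, 42.3 and 16.5 CPM in tamoxifen, with a log2 fold change of 1.16 (edgeR adjusted p = 0.1), and Clec2d had 1.45 (edgeR adjusted p = 0.122). Without tamoxifen 4, Cd274 had 1.47 (edgeR adjusted p = 9.41e-05) and Clec2d 1.8 (edgeR adjusted p = 0.000513), and 5 of the 10 ligands passed higher and 1 lower, beside 19.2% and 17.1% of all genes.

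Cells that also carry class I were looked for by their markers. Of 10 T and NK cell markers none was tested, 8 were at 0 in all libraries, among them Cd3e, Cd8a, Ncr1 and Prf1, and no single value exceeded 0.103 CPM, where a count of 0 allows up to 0.177 CPM in the shallowest library. The 5 B cell markers in the table, the 7 neutrophil markers and the 6 endothelial and stromal markers were not tested either, with highest single values of 0.823, 0.617 and 0.507 CPM. Macrophage and dendritic cell markers, 6 of 11 tested, summed to 3.93 to 7.43 CPM in oil and 6.57 to 12.7 CPM in tamoxifen, with Flt3 and Siglech at 0, and tamoxifen 2 was the highest here as it was for the class I genes. Erythroid markers summed to 3820 to 5920 CPM in oil and 3060 to 7290 CPM in tamoxifen, with tamoxifen 4 the lowest and tamoxifen 2 the highest. The part of the macrophage and erythroid markers in the class I values was not tested.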

How the data were processed

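RNA-seq of 6 libraries was used, 3 per group. Per the labels, the processing used STAR, DESeq2 and the build mm10, and the study names paired-end Illumina NovaSeq reads. The authors deposited expected counts, estimated counts per gene symbol that need not be whole, not scaled between libraries. The counting program, its strand setting and its annotation are not given in the sources used here. For library preparation the labels give a Nextera DNA Flex kit, and the study a sequencing provider. All per-sample columns were used. Libraries carry the numbers of their columns, of which oil 3 and tamoxifen 2 match no sample title, so these entered only by the group that the column names. No libraries of the same group agreed within sampling noise (smallest chi-square per degree of freedom 7.37), and libraries of different groups were not compared in this way. The labels call the replicates biological, and the study gives 3 mice per group.

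Counts were rounded and analysed in R 4.3.3 with edgeR 4.0.16 (filterByExpr by group, TMM, quasi-likelihood F test, no block), with Benjamini-Hochberg adjustment over 11614 genes and a threshold of 0.05. SE were derived from the F statistics. CPM used TMM-scaled totals, and log2 CPM a prior count of 2. A count of 3 was 0.145 to 0.177 CPM, a floor that covers counting error alone, as no molecular identifiers were counted. Ratios of subunits used counts plus 0.5 on the log2 scale and an exact permutation test. Lengths and coordinates came from GENCODE M21 and promoters from RefSeq (GRCm38.p6).

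Members and lists were chosen with earlier results of these data known. Named were all 10 members, the 3 standard catalytic subunits, list genes with an adjusted p under 0.05, the 3 largest absolute log2 fold changes of each other list at a mean of at least 1 CPM, and the 10 genes most like the members. The alternatives tried were a replicate block, limma-voom (limma 3.58.1), the Wald test of DESeq2 1.42.0, upper-quartile scaling or DESeq2 size factors in edgeR, no low-count filter, a mean of at least 50 counts, and omission of each library, and for the ratios pseudocounts of 1 and 5 and the other 20S subunits as denominator. The scripts were tested on simulated data. Figures were drawn with matplotlib 3.10.9.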

Additional observations from a re-analysis of the deposited data

How the results depend on the processing

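Of the 10 class I genes, 0 passed the threshold higher or lower in edgeR under DESeq2 size factors or upper-quartile scaling. The same held for no low-count filter, a mean of at least 50 counts, the DESeq2 Wald test and limma-voom. It also held with the replicate block, which compares only libraries 1 and 4 of each group. When libraries were omitted singly, the number higher ran from 0 to 4, the latter without tamoxifen 4, and the number lower was 0. Without tamoxifen 4, 19.2% of all genes passed higher and 17.1% lower. When any other library was left out, 8 to 16 of all genes tested passed higher and 0 lower. Among the 110 context genes, 1 was higher as reported, 5 with the DESeq2 Wald test, 0 with limma-voom and 2 without the low-count filter, where 134 were tested. Of all genes tested, 203, 713, 48 and 372 were higher in these fits, in the same order. Across the fits that left out 1 library, 0 to 19 context genes were higher and 0 to 30 lower, both upper values without tamoxifen 4. Usp18 had a log2 fold change of 1.0 with the DESeq2 Wald test (adjusted p = 0.00199) and 0.99 without the low-count filter (edgeR adjusted p = 0.0395), and ran from 0.73 to 1.18 across the fits that left out 1 library, passing without tamoxifen 4 (1.04). The cause of these shifts was not tested.

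Directions reversed for H2-K1 with the replicate block (-0.04) and for Tapbp with the replicate block (-0.03) and without tamoxifen 2 (-0.07), where leaving out 1 library moved it between -0.07 and 0.24. Only numbers 1 and 4 occur in both groups, so with the block the contrast rested on those libraries. Libraries whose number occurs in 1 group only, tamoxifen 2 among them, did not bear on it. The reversals with the block are therefore no separate check from leaving out tamoxifen 2. The deviations of libraries with the same number had correlations of -0.13 and 0.06, so they share only a number. With the block 215 genes were higher and 26 lower, beside 203 and 31 as reported. The ratios of inducible to standard subunits kept their direction under all alternatives run, but without tamoxifen 2 Psmb9 over Psmb6 was 0.14 and Psmb10 over Psmb7 0.06. With the other 20S subunits as denominator Psmb8 was 0.36, beside 0.51 over Psmb5, and Psmb9 was 0.19 and Psmb10 0.18. Depth limits Nlrc5, whose libraries held 21 to 129 counts.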
